A study of Mus musculus with 11 samples.

Results

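Interferon-stimulated genes were followed in RNA-seq libraries of mouse cell lines from liver tumours that carry mutant YAP or TAZ. The 44 genes are a list of widely used interferon-stimulated genes, taken by name for their known induction by interferon, and all 44 were found among the 36528 Entrez gene IDs of the tables. The list was chosen with earlier results of these data known, so its shares set beside all genes are descriptions only. By role they comprise 4 genes of signalling and transcription, 3 nucleic acid sensors, 4 genes of ISG15 conjugation, 20 antiviral effectors, 6 guanylate-binding protein (GBP) and immunity-related GTPase (IRG) genes and 7 other interferon-stimulated genes. The series holds 3 groups of polyA RNA libraries from cells in culture, named by their mutant as YAP-S127A (n = 3), YAP-5SA (n = 3) and TAZ-S89A (n = 5). YAP and TAZ are transcriptional coactivators that LATS kinases of the Hippo pathway keep out of the nucleus by phosphorylating serines. S127A and S89A each replace a serine of that kind, in YAP and in TAZ, and 5SA replaces all such serines of YAP. All 3 groups carry an activated mutant, and no unmutated cells were analysed here, so each comparison sets one mutant against another. The labels give neither the promoter or vector that drove the mutants, nor treatment, strain, age or the number of lines, and they do not say whether libraries of a group are separate lines, clones or cultures, so p-values measure only the spread between these libraries.

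Interferons are secreted proteins by which cells signal the presence of viruses and other threats. Type I and III interferons act through the kinases JAK1 and TYK2 on a complex that includes STAT2 and IRF9 and binds the interferon-stimulated response element (ISRE) in promoters. Interferon gamma acts through JAK1 and JAK2 on genes with gamma-activated sites (GAS), and it also raises IRF1, a factor that binds ISRE-like letters itself. The effectors made in response degrade or modify viral RNA, block translation or entry, or, in the case of the GBP and IRG proteins, attack membranes around intracellular pathogens.

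Promoter sequences of 7 members are shown because each holds the core letters of the same response element while the RNA levels took different orders in the 3 groups. Each stretch holds the 130 bases before the RefSeq transcript start (GRCm38.p6), 5' to 3' on the strand of the gene, and capitals mark matches on either strand to the core ISRE letters, GAAA followed by any 2 bases and GAAA again, which may overlap. Isg15 (chr4:156200819-156200948 on the minus strand), Ifit1 (chr19:34640759-34640888 on the plus strand) and Rsad2 (chr12:26456453-26456582 on the minus strand) were highest in YAP-S127A. Oas1a (chr5:120907526-120907655 on the minus strand) was highest in YAP-5SA. Gbp2 (chr3:142620533-142620662 on the plus strand), Gbp7 (chr3:142530206-142530335 on the plus strand) and Igtp (chr11:58199426-58199555 on the plus strand) were lowest in YAP-S127A.
Isg15: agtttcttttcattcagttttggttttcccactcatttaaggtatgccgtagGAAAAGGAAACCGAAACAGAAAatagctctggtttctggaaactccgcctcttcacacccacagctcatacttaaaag
Ifit1: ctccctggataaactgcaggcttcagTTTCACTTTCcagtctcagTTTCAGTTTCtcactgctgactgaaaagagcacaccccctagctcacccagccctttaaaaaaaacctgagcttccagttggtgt
Rsad2: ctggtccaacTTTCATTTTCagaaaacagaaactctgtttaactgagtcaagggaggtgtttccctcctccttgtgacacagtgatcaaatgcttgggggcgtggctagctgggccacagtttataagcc
Oas1a: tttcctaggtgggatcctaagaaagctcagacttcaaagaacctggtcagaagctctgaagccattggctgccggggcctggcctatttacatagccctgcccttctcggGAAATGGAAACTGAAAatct
Gbp2: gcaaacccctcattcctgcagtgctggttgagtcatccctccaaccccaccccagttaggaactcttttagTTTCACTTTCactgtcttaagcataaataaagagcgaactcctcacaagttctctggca
Gbp7: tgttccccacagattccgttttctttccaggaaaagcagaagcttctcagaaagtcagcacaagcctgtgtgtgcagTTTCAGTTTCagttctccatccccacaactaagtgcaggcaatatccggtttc
Igtp: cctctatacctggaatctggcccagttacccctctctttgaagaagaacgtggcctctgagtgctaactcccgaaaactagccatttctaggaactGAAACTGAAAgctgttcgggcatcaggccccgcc
In windows of 300 bases, from 250 before to 50 after the start, the ISRE letters were found in 17 of the 33 members with a window (51.5%) and in 1079 of all 27025 genes (3.99%). By role, 9 of 16 antiviral effectors and 5 of 5 GBP and IRG genes held them. In the remaining roles it was 1 of 4 signalling genes, 1 of 1 sensor, 1 of 3 ISG15 conjugation genes and 0 of 4 others. The GAS letters TTCNNNGAA, which read the same on both strands, were found in 10 of 33 members (30.3%) and in 9.55% of all genes. A match describes the letters of the window and is neither a binding site nor a cause.

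Total counts per library ran from 20071144 to 49159713, with both lowest totals in TAZ-S89A replicates 4 and 5. This pair has sample IDs of another number series than the other 9 libraries. Over all genes, Pearson's r of log2 levels was 0.978 to 0.997 within groups and 0.861 to 0.883 between groups. Over the 44 members it was 0.977 to 0.996 within groups and 0.769 to 0.881 between groups. These are descriptions across genes, which are not independent replicates. Within TAZ-S89A, replicates 1 and 2 (r = 0.997) and replicates 4 and 5 (r = 0.995) lay closest to each other. Results are also given with each of these TAZ-S89A pairs summed where that changes a call. YAP-S127A replicates 1 and 2 (r = 0.995) and YAP-5SA replicates 1 and 3 (r = 0.995) were about as close and were not summed. The 8 hepatocyte markers summed to at most 10.2 CPM (counts relative to the TMM-scaled total of the library) in any library. Most of this was Hnf4a, at 7.62 to 9.25 CPM in YAP-S127A, 6.72 to 7.67 CPM in YAP-5SA and 0.585 to 0.802 CPM in TAZ-S89A. The other hepatocyte markers were nearly absent, and the highest of them, Alb, reached at most 1.31 CPM. Stellate and fibroblast markers (8) summed to 8515 to 9040 CPM in YAP-S127A, 4519 to 4833 CPM in YAP-5SA and 3611 to 4737 CPM in TAZ-S89A, and biliary and progenitor markers (6) to 466 to 590 CPM, 2720 to 4273 CPM and 1758 to 3663 CPM in the same groups. The stellate and fibroblast sum of YAP-5SA was mostly Vim (4139 to 4552 CPM). Col1a2 (14.7 to 17.8 CPM), Pdgfrb (0.993 to 1.20 CPM) and Acta2 (2.52 to 2.94 CPM) lay far below YAP-S127A there (2140.1 to 2355, 438 to 493 and 403 to 479 CPM). The sum of TAZ-S89A was mostly Col1a2 (1501 to 3057 CPM) and Vim (1294 to 1967 CPM). Col1a1 lay far below YAP-S127A there (27.5 to 36.5 against 2756 to 3055 CPM). So did Pdgfra (0.0816 to 0.232 against 97.5 to 107 CPM) and Acta2 (30.3 to 99.6 CPM). Against YAP-S127A, 5 of the 6 tested were lower in TAZ-S89A and 0 higher (83.3% and 0%, against 30.6% and 27.0% of all genes). Krt19 in YAP-5SA lay far above YAP-S127A (1124 to 1759 against 48.9 to 65.3 CPM), and Sox9 below it (6.24 to 9.20 against 18.8 to 19.5 CPM). The biliary and progenitor sum of TAZ-S89A was mostly Spp1 (1670 to 3587 CPM). Of the 5 tested, 2 were higher and 2 lower there than in YAP-S127A (40% each, against 27.0% and 30.6% of all genes). In YAP-5SA against YAP-S127A, 3 were higher and 1 lower (60% and 20%, against 28.2% and 27.0%). Krt19 (4.32 to 9.92 CPM) and Krt7 (0.877 to 2.49 against 93.3 to 118 CPM) lay below YAP-S127A in TAZ-S89A. The mutants thus differed in these markers as well, and the part of such differences in the results below was not tested. In bulk libraries, fewer cells of a type and less RNA per cell cannot be told apart.

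Interferon-stimulated genes did not move as 1 block between the mutants. In YAP-5SA against YAP-S127A, 24 members were higher and 9 lower (75.0% called, against 55.2% of the 18224 genes tested, with 28.2% higher and 27.0% lower), with a median log2 fold change of 0.79 against 0.01 for all genes. TAZ-S89A against YAP-S127A gave 16 higher and 13 lower (65.9% called, against 57.6% of all genes, with 27.0% higher and 30.6% lower), with a median of 0.16 against -0.03. TAZ-S89A against YAP-5SA gave 11 higher and 22 lower (75.0% called, against 57.9% of all genes, with 26.9% higher and 31.0% lower), with a median of -0.39 against -0.04. Calls are at an adjusted p under 0.05 by edgeR's quasi-likelihood test, all 44 members entered it, and each group enters 2 of the 3 comparisons, so these are not independent.

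Of the 44 members, 17 were called above both other groups in YAP-5SA (38.6%, against 17.1% of all genes), 6 in YAP-S127A (13.6% against 14.9%) and 6 in TAZ-S89A (13.6% against 13.0%). Members called below both others numbered 12 in YAP-S127A (27.3% against 13.8%), 9 in TAZ-S89A (20.5% against 17.2%) and 4 in YAP-5SA (9.1% against 14.1%). Usp18, Adar and Ifitm2 were called in no comparison, and 15 members in all 3. The YAP-5SA libraries also had the most RNA of leukocyte and macrophage markers: 12 markers summed to 94.2 to 109 CPM in YAP-5SA, 23.9 to 28.7 CPM in YAP-S127A and 28.0 to 37.2 CPM in TAZ-S89A. In YAP-5SA these counts came from Csf1r (24.5 to 30.3 CPM), Cd14 (33.1 to 43.1 CPM), Lyz2 (12.4 to 20.8 CPM), Cd74 (8.06 to 11 CPM) and Cd68 (7.89 to 9.01 CPM), and the other 7 were each under 1 CPM. Of those, Itgam had 91 counts over the 3 YAP-5SA libraries against 1 in YAP-S127A and 4 in TAZ-S89A, Adgre1 25 against 0 and 0, Cd3e 20 against 0 and 1, and Fcgr1 65 against 31 and 6. The pan-leukocyte Ptprc had 22 against 36 and 34, and Siglech was at 0 in all. In YAP-5SA against YAP-S127A, 6 of the 8 tested markers were higher and 0 lower (75.0% and 0%, against 28.2% and 27.0% of all genes). Their part in the YAP-5SA levels below was not tested.

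**Figure D1:**
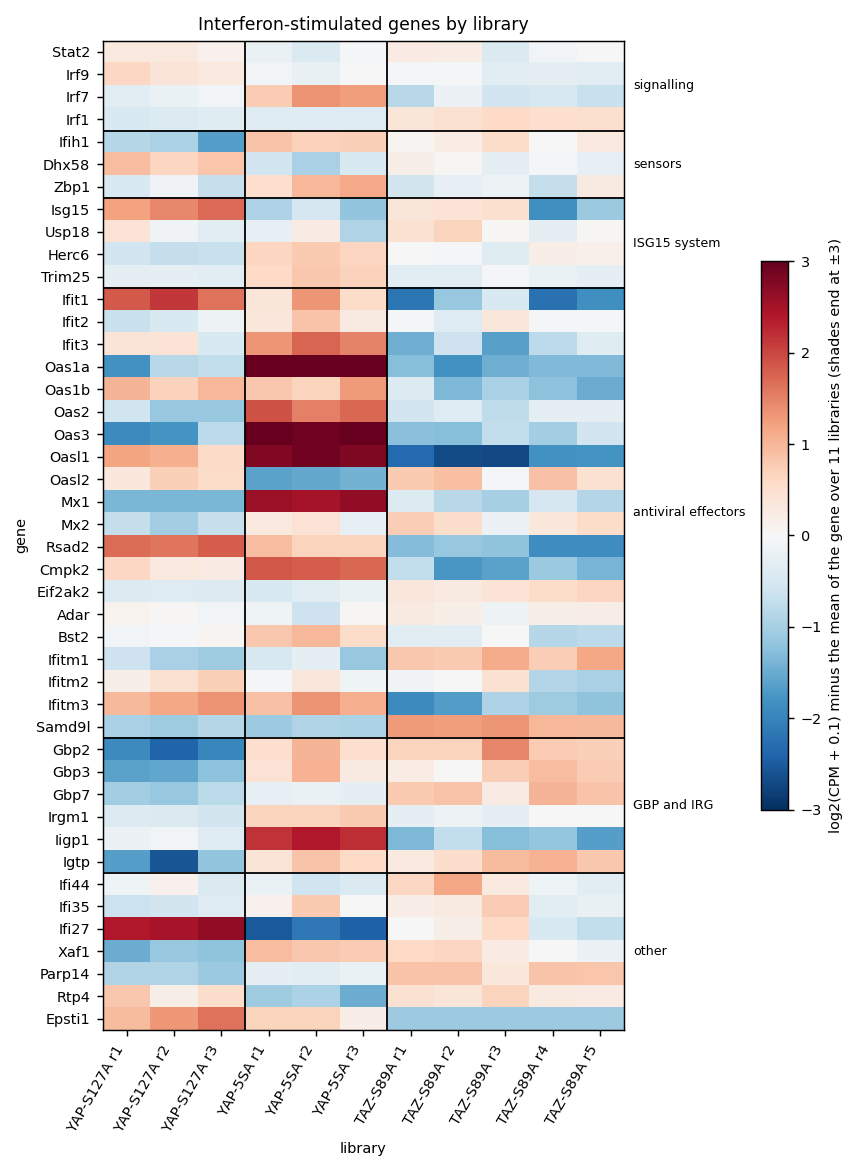
Levels of the 44 interferon-stimulated genes (rows, by role) in 11 libraries (columns), as log2(CPM + 0.1) minus the mean of the gene over the libraries. Oas1a, Oas3, Oasl1 and Mx1 are dark red in the 3 YAP-5SA libraries, Ifi27 is red in the 3 YAP-S127A libraries, and Gbp2, Gbp3 and Igtp are blue in YAP-S127A.

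**Figure D2:**
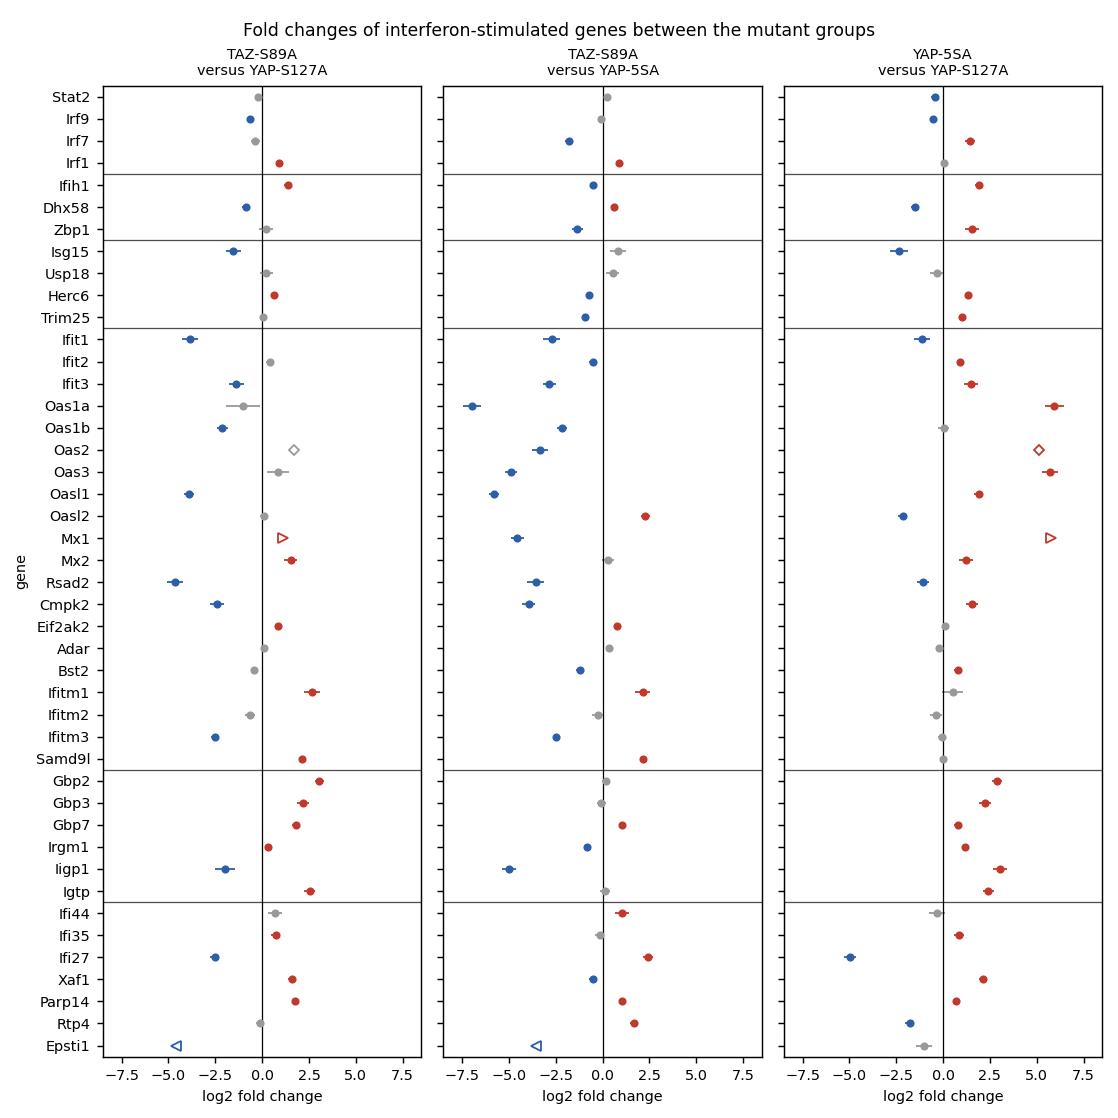
Log2 fold change per member in each comparison (x axis), with the standard error as a bar, red for called higher, blue for called lower and grey for not called. Open triangles are lower bounds for genes with 0 counts in a group, drawn at the bound, and open diamonds are ratios of pooled counts for Oas2, which has 2 counts in YAP-S127A. The effector rows spread to both sides in TAZ-S89A against YAP-S127A, and all 6 GBP and IRG rows lie to the right in YAP-5SA against YAP-S127A.

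The 4 genes of signalling and transcription did not share one order of the groups. Irf1, a transcription factor induced most by interferon gamma, stood at 40.3, 41.7 and 42.7 CPM in YAP-S127A, 42.3, 42.0 and 42.5 CPM in YAP-5SA and 70.6, 75.3, 83.3, 78.1 and 77.6 CPM in TAZ-S89A. All 5 TAZ-S89A libraries lay above all 6 YAP libraries, whose ranges overlapped. The log2 fold change of Irf1, given here and below ± its standard error, was 0.89 ± 0.11 (adjusted p = 7.35e-06) in TAZ-S89A against YAP-S127A and 0.87 ± 0.11 (adjusted p = 8.30e-06) against YAP-5SA.
Irf7, the factor that amplifies interferon production, was low everywhere, at 0.914, 1.02 and 1.11 CPM in YAP-S127A, 2.06, 3.18 and 2.95 CPM in YAP-5SA and 0.614, 1.03, 0.754, 0.816 and 0.71 CPM in TAZ-S89A. It was highest in YAP-5SA, by 1.43 ± 0.25 (adjusted p = 2.21e-04) over YAP-S127A, and TAZ-S89A did not differ detectably from YAP-S127A (-0.36 ± 0.24, adjusted p = 0.21). Irf9, the DNA-binding part of the complex with STAT2, was highest in YAP-S127A, at 25.5, 21.7 and 20.1 CPM, against 15.4, 14.0 and 16.4 CPM in YAP-5SA and 16.0, 16.0, 13.1, 13.4 and 13.2 CPM in TAZ-S89A. Against YAP-S127A its log2 fold change was -0.55 ± 0.15 (adjusted p = 0.0051) in YAP-5SA and -0.64 ± 0.13 (adjusted p = 7.02e-04) in TAZ-S89A, with no overlap in either.
Stat2, which carries the activation domain of that complex, stood at 35.4, 35.8 and 31.9 CPM in YAP-S127A, 25.4, 21.5 and 28.6 CPM in YAP-5SA and 34.2, 34.0, 21.6, 27.5 and 28.6 CPM in TAZ-S89A. Of its comparisons only YAP-5SA against YAP-S127A was called (-0.45 ± 0.17, adjusted p = 0.041), and that call was lost on leaving out YAP-5SA replicate 1 or 2, any YAP-S127A replicate or TAZ-S89A replicate 5, with the close pairs summed and with no low-count filter, with adjusted p up to 0.14 over the alternatives. Without TAZ-S89A replicate 3, Stat2 was called higher in TAZ-S89A than in YAP-5SA (adjusted p = 0.030).

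The cytosolic sensors split. Ifih1 (MDA5), which detects long double-stranded RNA, stood at 2.34, 2.17 and 1.31 CPM in YAP-S127A, 7.83, 7.03 and 7.05 CPM in YAP-5SA and 4.58, 5.06, 6.35, 4.28 and 5.30 CPM in TAZ-S89A. The groups did not overlap, and over YAP-S127A the log2 fold change was 1.91 ± 0.22 (adjusted p = 6.85e-06) in YAP-5SA and 1.40 ± 0.21 (adjusted p = 5.94e-05) in TAZ-S89A. TAZ-S89A was also lower than YAP-5SA, with a log2 fold change of -0.51 ± 0.19 (adjusted p = 0.03), but that call was lost without any 1 of the 3 YAP-5SA libraries, without TAZ-S89A replicate 1, 2 or 4, without replicates 4 and 5 together, with the ID series as a covariate and with the close pairs summed, with adjusted p up to 0.11. Dhx58 (LGP2), a regulator of the RNA helicase sensors, took the reverse order, with 5.55, 4.59 and 5.17 CPM in YAP-S127A, 3.26, 2.94, 2.32, 2.81 and 2.42 CPM in TAZ-S89A and 1.90, 1.41 and 2.06 CPM in YAP-5SA. The 3 groups did not overlap, and the log2 fold change of YAP-5SA over YAP-S127A was -1.51 ± 0.20 (adjusted p = 2.49e-05). Leaving out YAP-5SA replicate 2 took the adjusted p of Dhx58 in TAZ-S89A against YAP-5SA from 0.011 to 0.052. Zbp1, a sensor of left-handed nucleic acid, stood at 0.695, 1.03 and 1.14 CPM in YAP-5SA, higher than in YAP-S127A (1.54 ± 0.35, adjusted p = 0.0021) and TAZ-S89A (log2 fold change -1.35 for TAZ-S89A over YAP-5SA).

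Isg15, an interferon-induced ubiquitin-like modifier that is attached to many proteins, stood at 15.3, 18.2 and 21.7 CPM in YAP-S127A, 3.39, 4.64 and 2.83 CPM in YAP-5SA and 8.42, 8.72, 9.17, 1.75 and 2.96 CPM in TAZ-S89A. Every YAP-S127A library lay above every other library. Within TAZ-S89A, replicate 4 lay below the YAP-5SA range, replicate 5 inside it and replicates 1 to 3 above it. The log2 fold change was -2.34 ± 0.48 (adjusted p = 8.71e-04) in YAP-5SA and -1.54 ± 0.40 (adjusted p = 0.0043) in TAZ-S89A, each against YAP-S127A. TAZ-S89A did not pass the test against YAP-5SA (0.80 ± 0.43, adjusted p = 0.13) over all 5 libraries, but did without replicates 4 and 5 (1.29, adjusted p = 7.1e-05), without either of them singly, with the ID series as a covariate, and with the close pairs summed.
The ISG15 ligases followed another order. Herc6, the mouse ISG15 ligase, stood at 8.16, 7.45 and 7.72 CPM in YAP-S127A, 19.1, 21.0 and 19.3 CPM in YAP-5SA and 12.1, 11.7, 9.48, 14.1 and 13.6 CPM in TAZ-S89A, with 3 groups that did not overlap. Trim25, a ubiquitin and ISG15 ligase that acts on the RNA sensor RIG-I, was at 112, 129.8 and 121 CPM in YAP-5SA, against 59.3 to 61.3 CPM in YAP-S127A and 59.4 to 71.2 CPM in TAZ-S89A, a log2 difference of 0.997 ± 0.13 (adjusted p = 1.80e-05) between the YAP groups. Usp18, which removes ISG15 and dampens the type I receptor, was at 0.639 to 1.11 CPM in YAP-S127A, 0.387 to 0.980 CPM in YAP-5SA and 0.653 to 1.36 CPM in TAZ-S89A, and passed no test.

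Of the 20 antiviral effectors, 9 were called above both other groups in YAP-5SA, 2 in YAP-S127A and 3 in TAZ-S89A. Over all genes these shares were 17.1%, 14.9% and 13.0%. In TAZ-S89A 7 more effectors were called below both others, against 17.2% of all genes. YAP-5SA had 10 higher and 3 lower than YAP-S127A (50% and 15%, against 28.2% and 27.0% of all genes), with a median log2 fold change of 0.66. TAZ-S89A had 4 higher and 13 lower than YAP-5SA (20% and 65%, against 26.9% and 31.0%), with a median of -2.31. Against YAP-S127A it had 5 higher and 7 lower (25% and 35%, against 27.0% and 30.6%), with a median of -0.15, which is close to the shares of all genes.
The oligoadenylate synthetases, which make the second messenger that activates RNase L, gave some of the widest differences. Oas1a stood at 0, 0.0984 and 0.111 CPM in YAP-S127A, 3.64, 5.52 and 3.17 CPM in YAP-5SA and 0.0472, 0, 0.0290, 0.0408 and 0.0418 CPM in TAZ-S89A. It was thus at or near 0 outside YAP-5SA, and TAZ-S89A was lower than YAP-5SA, with a log2 fold change of -6.97 ± 0.48 (adjusted p = 2.26e-08). Oas3 had the same shape, at 0.0223, 0.0328 and 0.167 CPM in YAP-S127A, 3.98, 3.37 and 4.53 CPM in YAP-5SA and 0.0944, 0.0892, 0.174, 0.122 and 0.209 CPM in TAZ-S89A, with 5.71 ± 0.44 (adjusted p = 1.08e-07) between the YAP groups. Oas2 had 75 counts over the 3 YAP-5SA libraries, 2 over YAP-S127A and 10 over TAZ-S89A, and its pooled ratio of YAP-5SA to YAP-S127A was 34.6, with a 95% interval of 9.26 to 291 that covers counting error only. Oas2 and Oas3 passed no test between TAZ-S89A and YAP-S127A over all libraries, but Oas2 did without YAP-S127A replicate 1 (and with limma-voom) and Oas3 without YAP-S127A replicate 3, each higher in TAZ-S89A.
The synthetase-like genes parted from each other. Oasl1, which represses Irf7 translation, stood at 2.67, 2.46 and 1.72 CPM in YAP-S127A, 8.18, 9.01 and 8.38 CPM in YAP-5SA and 0.142, 0.0892, 0.0870, 0.245 and 0.251 CPM in TAZ-S89A. All 3 groups were separate, in the order YAP-5SA, YAP-S127A, TAZ-S89A, and TAZ-S89A was lower than YAP-5SA, with a log2 fold change of -5.80 ± 0.27 (adjusted p = 3.67e-10). Its neighbour Oasl2 went the other way, with 0.829, 0.861 and 0.944 CPM in YAP-5SA against 3.39 to 4.5 CPM in YAP-S127A and 2.64 to 5.15 CPM in TAZ-S89A. YAP-5SA was lower than YAP-S127A, with a log2 fold change of -2.17 ± 0.26 (adjusted p = 9.98e-06). Oas1b was level in both YAP groups (1.67 to 2.14 and 1.65 to 2.57 CPM) and lower in TAZ-S89A (0.292 to 0.732 CPM, -2.16 ± 0.28, adjusted p = 1.39e-05 against YAP-5SA). The Oas genes lie together on chromosome 5 and resemble each other, so reads of 1 copy could be counted for another.

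Ifit1, which binds viral RNA caps, stood at 2.27, 2.76 and 1.94 CPM in YAP-S127A, 0.748, 1.55 and 0.872 CPM in YAP-5SA and 0.0472, 0.201, 0.377, 0.0408 and 0.0835 CPM in TAZ-S89A. The 3 groups did not overlap, and TAZ-S89A was lower than YAP-S127A, with a log2 fold change of -3.85 ± 0.45 (adjusted p = 5.55e-06). The YAP-5SA difference from YAP-S127A (-1.13 ± 0.41, adjusted p = 0.032) was lost without YAP-5SA replicate 1 or 3 or YAP-S127A replicate 1 or 2, with adjusted p up to 0.12. Its neighbours on chromosome 19 were instead highest in YAP-5SA. Ifit3 was at 1.58, 2.13 and 1.77 CPM in YAP-5SA, 0.780, 0.787 and 0.389 CPM in YAP-S127A and 0.142, 0.334, 0.116, 0.285 and 0.418 CPM in TAZ-S89A, where the last groups overlapped. Ifit2 was at 24.1 to 35.8 CPM in YAP-5SA, 12.6 to 17.8 CPM in YAP-S127A and 15.3 to 25.3 CPM in TAZ-S89A, with a log2 fold change of 0.92 ± 0.20 (adjusted p = 0.0016) between the YAP groups. The Ifit2 call in TAZ-S89A against YAP-5SA (-0.53 ± 0.18, adjusted p = 0.021) was lost without YAP-5SA replicate 2, without TAZ-S89A replicates 4 and 5 together and with the close pairs summed. Without TAZ-S89A replicate 2, or with the pairs summed, Ifit2 was called higher in TAZ-S89A than in YAP-S127A.
Rsad2 (viperin) and Cmpk2, neighbours on chromosome 12 that act on nucleotides, were both lowest in TAZ-S89A and differed in the YAP groups. Rsad2 stood at 1.07, 1.02 and 1.19 CPM in YAP-S127A, 0.588, 0.478 and 0.484 CPM in YAP-5SA and 0.0472, 0.0669, 0.0580, 0 and 0 CPM in TAZ-S89A. TAZ-S89A was lower than YAP-S127A, with a log2 fold change of -4.64 ± 0.42 (adjusted p = 4.18e-07), and the YAP-5SA difference (-1.08 ± 0.33, adjusted p = 0.014) reached an adjusted p of 0.051 without YAP-S127A replicate 3. Cmpk2 was at 1.66, 1.60 and 1.5 CPM in YAP-5SA and 0.646, 0.492 and 0.472 CPM in YAP-S127A, so the YAP order was reversed (1.54 ± 0.31, adjusted p = 7.91e-04), with at most 0.189 CPM in TAZ-S89A.
Mx1, a dynamin-like GTPase that blocks influenza viruses, had 0 counts in all 3 YAP-S127A libraries, 1.47, 1.36 and 1.55 CPM in YAP-5SA and at most 0.0944 CPM in TAZ-S89A. Against a floor of 3 counts over the YAP-S127A group, YAP-5SA was at least 54.2-fold higher and TAZ-S89A at least 2.18-fold higher. Mx2 was at 0.267, 0.197 and 0.278 CPM in YAP-S127A and higher in both other groups (1.51 for TAZ-S89A and 1.23 for YAP-5SA on the log2 scale), which did not differ detectably.

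In 2 of the 3 Ifitm genes the TAZ-S89A libraries stood apart from both YAP groups. Ifitm3, a membrane protein that blocks viral entry, stood at 20.3, 23.2 and 26.4 CPM in YAP-S127A, 19.0, 26.4 and 22.2 CPM in YAP-5SA and 2.67, 3.19, 5.39, 4.89 and 4.38 CPM in TAZ-S89A. Both YAP ranges overlapped and lay above all 5 TAZ-S89A libraries, with a log2 fold change of -2.52 ± 0.21 (adjusted p = 1.71e-07) against YAP-S127A and -2.47 ± 0.21 (adjusted p = 1.78e-07) against YAP-5SA. Ifitm1, on the same cluster of chromosome 7, went the other way at a far lower level, with 0.472, 0.468, 0.609, 0.449 and 0.626 CPM in TAZ-S89A and at most 0.167 CPM in the YAP groups (2.65 ± 0.43, adjusted p = 1.21e-04 against YAP-S127A). Ifitm2 passed no test over all libraries, with 75.0, 90.2 and 108 CPM in YAP-S127A, 64.3, 83.8 and 60.4 CPM in YAP-5SA and 61.5, 65.8, 91.1, 35.7 and 33.7 CPM in TAZ-S89A. It was called lower in TAZ-S89A than in YAP-S127A without TAZ-S89A replicate 3 and in 5 other alternatives, with adjusted p from 0.0055 to 0.19.
Samd9l, which restricts poxviruses, stood at 11.9, 11 and 12.8 CPM in YAP-S127A, 10.9, 12.5 and 12.1 CPM in YAP-5SA and 57.0, 55.9, 58.3, 47.1 and 46.3 CPM in TAZ-S89A. TAZ-S89A was higher by 2.15 ± 0.13 (adjusted p = 7.61e-09) than YAP-S127A and by 2.16 ± 0.13 (adjusted p = 5.97e-09) than YAP-5SA, and the YAP groups overlapped. Eif2ak2 (PKR), which halts translation on double-stranded RNA, was at 39.1, 36.9, 40.7, 45.2 and 47.7 CPM in TAZ-S89A, against 23.0 to 23.4 CPM in YAP-S127A and 22.2 to 26.9 CPM in YAP-5SA (0.85 ± 0.12, adjusted p = 3.97e-05 against YAP-S127A). Adar, which edits double-stranded RNA, passed no test over all libraries, and was called higher in TAZ-S89A than in YAP-5SA with upper-quartile factors and without YAP-5SA replicate 3 or TAZ-S89A replicate 3. Bst2 (tetherin), which holds virus particles to the cell surface, was at 108, 123 and 89.9 CPM in YAP-5SA, 58.3, 60.3 and 65.7 CPM in YAP-S127A and 48.5, 49.0, 61.8, 34.0 and 35.9 CPM in TAZ-S89A. YAP-5SA was above both other groups without overlap (0.80 ± 0.21, adjusted p = 0.0048 against YAP-S127A), and the other pair was called only without TAZ-S89A replicate 3 and with limma-voom.

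The plot of 12 members shows each library behind these calls.

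**Figure D3:**
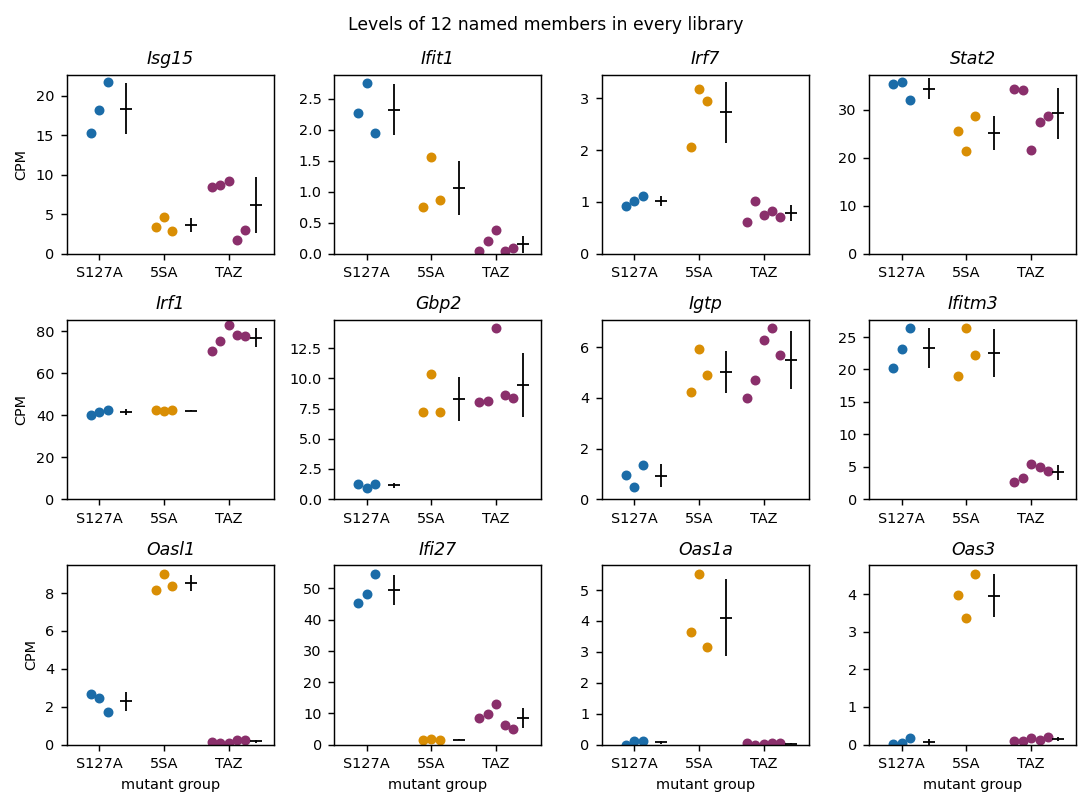
CPM of 12 members in every library (points) with the mean and SD of each group (cross and bar), on linear axes that start at 0. Oas1a and Oas3 are near 0 outside the 3 YAP-5SA libraries, Irf1 is above 70 CPM in all 5 TAZ-S89A libraries, and Isg15 in TAZ-S89A splits into replicates 1 to 3 and replicates 4 and 5.

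All 6 GBP and IRG members were called higher in YAP-5SA than in YAP-S127A (against 28.2% of all genes), with a median log2 fold change of 2.34. In TAZ-S89A against YAP-S127A 5 were higher and 1 lower (83.3% and 16.7%, against 27.0% and 30.6% of all genes), with a median of 2.0. TAZ-S89A against YAP-5SA gave 1 higher and 2 lower (16.7% and 33.3%, against 26.9% and 31.0%), with a median of 0.03. GBPs are large GTPases that coat bacteria and vacuoles, and the IRGs act with them.
Gbp2 stood at 1.27, 0.886 and 1.22 CPM in YAP-S127A, 7.22, 10.4 and 7.22 CPM in YAP-5SA and 8.07, 8.11, 14.2, 8.65 and 8.35 CPM in TAZ-S89A. All 8 libraries of the other groups lay above the 3 YAP-S127A libraries, with 3.06 ± 0.26 (adjusted p = 2.47e-07) for TAZ-S89A and 2.86 ± 0.27 (adjusted p = 9.00e-07) for YAP-5SA. TAZ-S89A and YAP-5SA overlapped (0.20 ± 0.21, adjusted p = 0.45), and TAZ-S89A replicate 3 was the highest library. Its neighbour Gbp3 had the same shape, at 0.535 to 0.722 CPM in YAP-S127A, 2.23 to 3.92 CPM in YAP-5SA and 1.85 to 3.59 CPM in TAZ-S89A. Gbp7, next to them on chromosome 3, was highest in TAZ-S89A, at 5.97, 6.29, 4.06, 7.06 and 6.26 CPM against 2.86, 2.99 and 2.81 CPM in YAP-5SA and 1.60, 1.51 and 1.92 CPM in YAP-S127A, with all groups apart.
Igtp (Irgm3), a regulator of the other IRG proteins, stood at 0.959, 0.459 and 1.36 CPM in YAP-S127A, 4.25, 5.93 and 4.91 CPM in YAP-5SA and 3.99, 4.73, 6.29, 6.77 and 5.72 CPM in TAZ-S89A. YAP-S127A lay below both other groups, with 2.54 ± 0.30 (adjusted p = 6.34e-06) for TAZ-S89A and 2.42 ± 0.31 (adjusted p = 1.85e-05) for YAP-5SA, and those overlapped. Irgm1, also a regulatory IRG, was at 109, 109 and 118 CPM in YAP-5SA, above 46.8 to 51.7 CPM in YAP-S127A (1.17 ± 0.13, adjusted p = 5.23e-06). Irgm1 was called higher in TAZ-S89A than in YAP-S127A (0.33 ± 0.12, adjusted p = 0.032), but 10 of 21 alternatives lost that call, among them leaving out any YAP-S127A replicate or TAZ-S89A replicate 4 or 5 and summing the close pairs, with adjusted p up to 0.13. Iigp1, an effector IRG, parted from the rest: at 1.31, 1.55 and 1.36 CPM in YAP-5SA, 0.178, 0.197 and 0.139 CPM in YAP-S127A and 0.0236, 0.0892, 0.0290, 0.0408 and 0 CPM in TAZ-S89A, it was lower in TAZ-S89A than in both.

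Set side by side in each library, the 6 GTPase members and the 20 effectors parted. The mean log2 CPM of the GTPases minus that of the effectors was -0.32, -0.58 and -0.28 in the YAP-S127A libraries. It was 0.46, 0.64 and 0.52 in those of YAP-5SA, and 1.31, 1.58, 1.59, 1.78 and 1.51 in those of TAZ-S89A. The 3 groups did not overlap. In TAZ-S89A the effector mean was the lowest of the groups, at 0.43 to 0.51, while the GTPase mean of 1.82 to 2.21 lay between those of YAP-S127A (0.43 to 0.78) and YAP-5SA (2.52 to 2.84). On log2 nRPKM, which divides by gene length and here took a pseudocount of 0.1 where log2 CPM took a prior count of 2, the group means of the difference were -0.84, 0.18 and 0.88 in the same order. No test was made of these means over members.

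**Figure D4:**
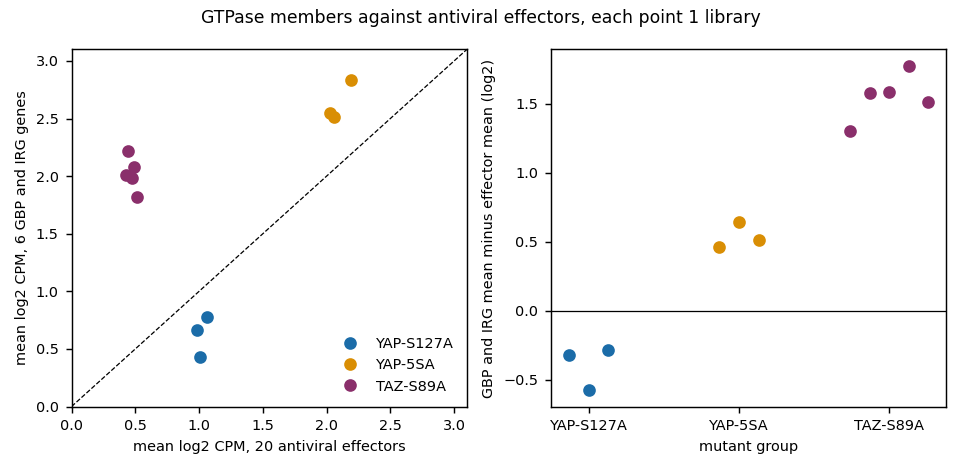
Mean log2 CPM of the 6 GBP and IRG members against that of the 20 antiviral effectors (left, each point 1 library, dashed line at equality) and their difference per library (right). TAZ-S89A libraries sit at 1.31 to 1.78, YAP-5SA at 0.46 to 0.64 and YAP-S127A at -0.58 to -0.28. Gene length is not divided out of these values.

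Among the remaining 7 members, Ifi27 was far higher in YAP-S127A than in the other groups. Ifi27, a mitochondrial protein, stood at 45.3, 48.2 and 54.6 CPM in YAP-S127A, 1.42, 1.84 and 1.5 CPM in YAP-5SA and 8.47, 9.74, 12.9, 6.2 and 5.05 CPM in TAZ-S89A. The groups did not overlap, and against YAP-S127A the log2 fold change was -4.96 ± 0.31 (adjusted p = 1.56e-08) in YAP-5SA and -2.53 ± 0.23 (adjusted p = 4.45e-07) in TAZ-S89A. Ifi27 overlaps Ifi27l2a in the annotation, and the strand setting of the counting is not known. Rtp4, a chaperone of receptors, was lowest in YAP-5SA, at 1.10, 1.20 and 0.799 CPM against 2.76 to 4.28 CPM in YAP-S127A and 2.88 to 3.92 CPM in TAZ-S89A.
Epsti1 had 0 counts in all 5 TAZ-S89A libraries, against 0.312, 0.427 and 0.556 CPM in YAP-S127A and 0.241, 0.239 and 0.145 CPM in YAP-5SA. With a floor of 3 counts over the TAZ-S89A group, it was at least 23.9-fold lower there than in YAP-S127A and at least 11.8-fold lower than in YAP-5SA. The YAP groups passed the Epsti1 test only with limma-voom, with only those groups fitted and without TAZ-S89A replicates 4 and 5.
Parp14, an ADP-ribosyltransferase, was highest in TAZ-S89A, at 25.6, 25.4, 17.6, 25.6 and 25.3 CPM, against 11.1 to 12.3 CPM in YAP-5SA and 6.47 to 7.48 CPM in YAP-S127A. Xaf1, a promoter of apoptosis, was lowest in YAP-S127A, at 2.32, 2.99 and 2.83 CPM, against 12.7, 11.8 and 11.3 CPM in YAP-5SA and 10.1, 10.5, 7.95, 6.65 and 5.85 CPM in TAZ-S89A. The Xaf1 call between TAZ-S89A and YAP-5SA (-0.53 ± 0.19, adjusted p = 0.026) was lost without YAP-5SA replicate 1 or 2, without TAZ-S89A replicates 4 and 5 together and with the ID series as a covariate. Ifi35 was at 18.9 to 22.3 CPM in YAP-S127A, 29.3 to 50.6 CPM in YAP-5SA and 23.4 to 49.98 CPM in TAZ-S89A, and its calls over YAP-S127A were lost without YAP-5SA replicate 2 (YAP-5SA, adjusted p = 0.082) or YAP-S127A replicate 1 or 2 (TAZ-S89A, up to 0.074). Ifi44 was called in TAZ-S89A against YAP-5SA (1.02 ± 0.37, adjusted p = 0.03), although the groups overlapped and the call was lost without YAP-5SA replicate 2 or 3 or TAZ-S89A replicate 1 or 2. Without TAZ-S89A replicate 5, without replicates 4 and 5 together, or with the ID series as a covariate, Ifi44 was also called higher than in YAP-S127A.

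Per gene length, the most abundant members were Ifitm2 and Bst2 in every group. Ifitm2 averaged 119 ± 20.2 (SD, n = 3) nRPKM in YAP-S127A, 90.3 ± 16.1 (n = 3) in YAP-5SA and 74.5 ± 28.7 (n = 5) in TAZ-S89A. Bst2 averaged 65.1 ± 3.37, 113 ± 17.6 and 48.4 ± 10.4 nRPKM in the same groups. The next place was taken by Ifi27 in YAP-S127A (31.4 ± 2.69 nRPKM) and by Irgm1 in YAP-5SA (39.7 ± 1.80 nRPKM) and TAZ-S89A (22.4 ± 3.05 nRPKM). Ifi27 ranked 22 of 44 in YAP-5SA, and Ifitm3 ranked 4 in both YAP groups and 13 in TAZ-S89A.

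Within TAZ-S89A, replicates 4 and 5 differed from replicates 1 to 3 for 7 members, all lower, and 0 higher, which is 15.9% called against 24.8% of the 18736 genes tested in that fit (10.5% higher and 14.3% lower). At an unadjusted p under 0.05 there were 4 higher and 9 lower, and DESeq2 called 3 higher. The 7 were Isg15 (-1.90 ± 0.26, adjusted p = 1.93e-04), Ifitm2 (-1.07), Ifi27 (-0.88), Bst2 (-0.61), Xaf1 (-0.61), Ifi35 (-0.72) and Ifi44 (-1.10), as log2 fold changes. The Ifi44 call was lost in 15 of 17 alternatives (adjusted p up to 0.29) and the Xaf1 call in 5 of 18, while those of Isg15 and Ifitm2 were lost in 0. The GBP and IRG members and the sensors had 0 calls, but Irgm1 was called higher with RLE size factors, DESeq2 and the strict low-count filter, and Gbp3 without replicate 3. Over all genes 42.4% of calls were higher, against 52.8% with RLE size factors and 53.7% with DESeq2. Leaving out replicate 4 or 5 cut the 7 to 3 or 2, and leaving out replicate 3 gave 3 members higher. The ID series and the libraries' lower totals go together and cannot be told apart.

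Other genes of the interferon pathway were taken from a list of 84, of which 83 were found and 71 tested. Of these, 35 were higher and 14 lower in TAZ-S89A than in YAP-S127A (49.3% and 19.7%, against 27.0% and 30.6% of all genes). TAZ-S89A against YAP-5SA gave 21 and 27 (29.6% and 38.0%, against 26.9% and 31.0%), close to the shares of all genes. YAP-5SA against YAP-S127A gave 35 and 14 (49.3% and 19.7%, against 28.2% and 27.0%).
The 10 interferon genes had too few counts to be tested. Ifnb1, the first type I interferon made on infection, reached at most 0.134 CPM, and Ifna1, Ifna2, Ifna5, Ifnl2 and Ifnl3 were at 0 in all 11 libraries. Ifng had 0.0802, 0.120 and 0.0242 CPM in YAP-5SA and 0 counts in the other 8 libraries.
All 6 receptor genes were detected. Ifnar1 and Ifnar2, the chains of the type I receptor, were both highest in TAZ-S89A and lowest in YAP-5SA. Ifnar1 stood at 76.5, 77.0 and 73.8 CPM in YAP-S127A, 37.0, 36.3 and 37.9 CPM in YAP-5SA and 104, 97.7, 101, 106 and 107 CPM in TAZ-S89A. Its log2 fold change in TAZ-S89A against YAP-5SA was 1.48 ± 0.11 (adjusted p = 5.47e-08), and that of Ifnar2 was 1.44 ± 0.12 (adjusted p = 2.18e-07). The interferon gamma receptor chains moved apart, with Ifngr1 at 70.4, 71.4 and 85.9 CPM in YAP-S127A, 212, 320.2 and 196 CPM in YAP-5SA and 146, 143, 214, 136 and 139 CPM in TAZ-S89A. YAP-5SA was higher than YAP-S127A by 1.68 ± 0.23 (adjusted p = 3.52e-05). Ifngr2 was instead highest in YAP-S127A, at 79.2, 79.1 and 76.4 CPM, against 22.0, 23.0 and 22.8 CPM in YAP-5SA (-1.79 ± 0.16, adjusted p = 4.83e-07) and 37.7, 39.5, 44.9, 55.3 and 54.6 CPM in TAZ-S89A. Ifnlr1, specific to interferon lambda, was higher in both YAP-5SA (1.43) and TAZ-S89A (0.95) than in YAP-S127A.

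Jak1, the kinase shared by all interferon receptors, stood at 607, 563 and 524 CPM in YAP-S127A, 65.7, 62.1 and 68.5 CPM in YAP-5SA and 75.7, 70.2, 78.2, 108 and 108 CPM in TAZ-S89A. The YAP-S127A libraries lay far above the others, and relative to them the log2 fold change was -2.68 ± 0.18 (adjusted p = 1.82e-08) in TAZ-S89A and -3.11 ± 0.22 (adjusted p = 4.47e-08) in YAP-5SA. Jak2 was highest in YAP-5SA, at 75.2 to 86.8 CPM against 48.5 to 56.8 CPM in YAP-S127A (0.63 ± 0.13, adjusted p = 8.40e-04), and Tyk2 was lower in TAZ-S89A than in YAP-S127A (-0.56 ± 0.17, adjusted p = 0.014).
Of 11 genes of the sensing pathway, 3 were higher and 3 lower in TAZ-S89A than in YAP-S127A (27.3% each, against 27.0% and 30.6% of all genes), close to the shares of all genes. TAZ-S89A against YAP-5SA gave 2 and 6 (18.2% and 54.5%, against 26.9% and 31.0%). YAP-5SA against YAP-S127A gave 5 and 4 (45.5% and 36.4%, against 28.2% and 27.0%). Mb21d1, which encodes the DNA sensor cGAS, stood at 22.3, 20.2 and 20.6 CPM in YAP-S127A, 4.78, 6.14 and 5.23 CPM in YAP-5SA and 0.0944, 0.245, 0.0870, 0.326 and 0.543 CPM in TAZ-S89A. Tmem173, which encodes its adaptor STING, stood at 10.3, 9.09 and 10.002 CPM in YAP-S127A, 0.829, 0.956 and 0.896 CPM in YAP-5SA and 0.142, 0.156, 0.203, 0.571 and 0.752 CPM in TAZ-S89A. Both took the order YAP-S127A, YAP-5SA, TAZ-S89A without overlap, and TAZ-S89A was lower than YAP-S127A, with a log2 fold change of -6.46 ± 0.31 (adjusted p = 6.49e-10) for Mb21d1 and -4.90 ± 0.36 (adjusted p = 5.10e-08) for Tmem173. Ddx58, the RNA sensor RIG-I, differed far less, at 15.2 to 17.7 CPM, 13.8 to 17.3 CPM and 15.4 to 22.3 CPM in YAP-S127A, YAP-5SA and TAZ-S89A. Ikbke, a kinase that phosphorylates IRF3 and IRF7, was at 117, 87.8 and 131 CPM in YAP-5SA, above 34.1 to 39.3 CPM in YAP-S127A (1.60 ± 0.16, adjusted p = 1.72e-06).
Among 9 negative regulators, Socs1 passed no test, Socs3 was lower in YAP-S127A than in TAZ-S89A (1.29 for TAZ-S89A) and YAP-5SA (1.19 for YAP-5SA), and the phosphatase Ptpn6 was highest in YAP-5SA, at 8.5, 10.04 and 7.63 CPM. Pias1, a SUMO ligase, was lowest in TAZ-S89A (-1.08 ± 0.13, adjusted p = 6.96e-06 against YAP-5SA).

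Outside the 44, 13 further GBP and IRG genes were tested, and 12 were higher and 0 lower in TAZ-S89A than in YAP-S127A (92.3% higher, against 27.0% of all genes). In that comparison 2 of the 13 had at most 3 counts over a group, and not every called gene had groups that were apart. There were 7 higher and 3 lower in TAZ-S89A against YAP-5SA (53.8% and 23.1%, against 26.9% and 31.0%). YAP-5SA against YAP-S127A gave 6 higher, 1 lower and 6 not called (46.2% and 7.7%, against 28.2% and 27.0%). Those of the chromosome 5 cluster separated TAZ-S89A from both YAP groups. Gbp4 stood at 1.20, 1.02 and 0.722 CPM in YAP-S127A, 2.7, 3.83 and 2.47 CPM in YAP-5SA and 155, 157, 141, 85.6 and 85.1 CPM in TAZ-S89A, and Gbp9 at 6.0, 4.95 and 5.95 CPM in YAP-S127A, 2.41, 2.08 and 3.12 CPM in YAP-5SA and 148, 138, 92.2, 82.3 and 77.2 CPM in TAZ-S89A. TAZ-S89A was higher than YAP-S127A by 6.97 ± 0.34 (adjusted p = 7.72e-10) for Gbp4 and 4.25 ± 0.27 (adjusted p = 1.09e-08) for Gbp9. Gbp8 (3.74) and Gbp11 (5.42) were likewise higher in TAZ-S89A than in YAP-5SA, as were Gbp6 and Gbp10. TAZ-S89A replicates 4 and 5 were the lowest TAZ-S89A libraries for Gbp4 and Gbp9, and 7 of the 13 genes were called lower in them than in replicates 1 to 3 (53.8%, against 14.3% of all genes). These genes are near-identical copies, so reads could be shared or lost between them and the values of single copies are uncertain.
The chromosome 3 cluster, which holds Gbp2, Gbp3 and Gbp7, took no single order. Gbp7 was highest in TAZ-S89A, like the chromosome 5 genes, while Gbp2 and Gbp3 overlapped between TAZ-S89A and YAP-5SA. Gbp2b stood at 0.0446, 0 and 0 CPM in YAP-S127A, 4.30, 6.0 and 4.48 CPM in YAP-5SA and 0.0944, 0.0446, 0.145, 0.285 and 0.125 CPM in TAZ-S89A, so it was near 0 outside YAP-5SA, and TAZ-S89A was lower than YAP-5SA, with a log2 fold change of -5.25 ± 0.36 (adjusted p = 2.13e-08). Gbp5 was at 0.605 to 0.789 CPM in YAP-5SA and at most 0.0472 CPM elsewhere.

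**Figure D5:**
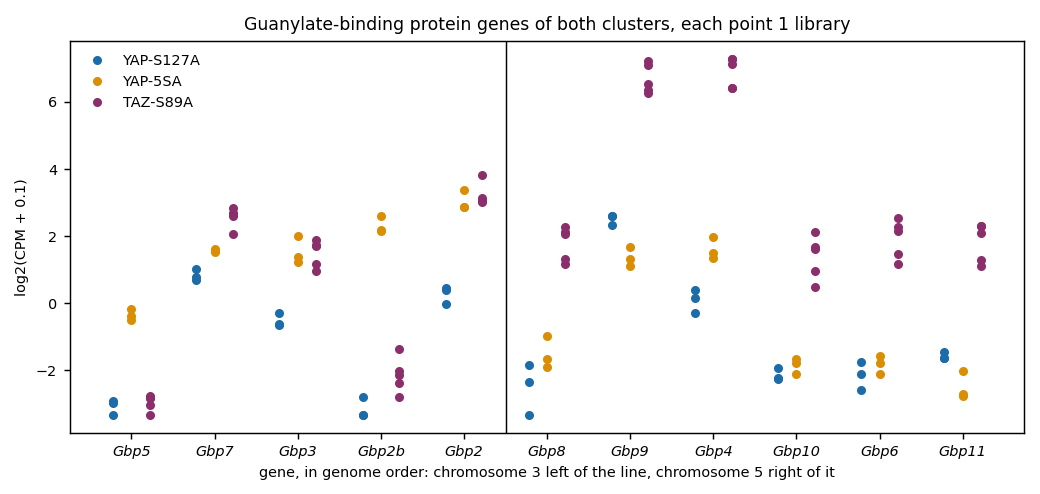
Log2(CPM + 0.1) of 11 guanylate-binding protein genes in 11 libraries, in genome order on chromosomes 3 and 5. On chromosome 5 all TAZ-S89A points lie above the YAP points. On chromosome 3 Gbp5 and Gbp2b are high in YAP-5SA, Gbp2 and Gbp3 are high in both YAP-5SA and TAZ-S89A, and Gbp7 is highest in TAZ-S89A.

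Of 27 further interferon-stimulated genes tested, 17 were higher and 5 lower in YAP-5SA than in YAP-S127A (63.0% and 18.5%, against 28.2% and 27.0% of all genes). TAZ-S89A against YAP-S127A gave 11 and 7 (40.7% and 25.9%, against 27.0% and 30.6%), and against YAP-5SA 7 and 11 (25.9% and 40.7%, against 26.9% and 31.0%). Lgals3bp, a secreted glycoprotein, stood at 28.1, 26.0 and 27.0 CPM in YAP-S127A, 146, 157 and 149 CPM in YAP-5SA and 13.9, 13.8, 20.2, 20.1 and 20.2 CPM in TAZ-S89A, with 2.48 ± 0.18 (adjusted p = 5.47e-08) between the YAP groups. Oas1c was highest in YAP-5SA, at 5.13, 6.93 and 5.54 CPM, with 1.18, 0.787 and 0.972 CPM in YAP-S127A and 0.519, 0.847, 0.464, 0.449 and 0.585 CPM in TAZ-S89A, and the latter groups overlapped (a log2 fold change of -0.76 ± 0.25, adjusted p = 0.02 for TAZ-S89A against YAP-S127A). Slfn2, a gene of T cell quiescence, was highest in TAZ-S89A, at 48.3, 50.2, 70.5, 37.1 and 37.8 CPM, against 17.1, 30.003 and 14.2 CPM in YAP-5SA and 3.12 to 3.28 CPM in YAP-S127A (3.94 ± 0.30, adjusted p = 7.00e-08 against YAP-S127A). Psmb8, an immunoproteasome subunit, was lowest there, at 1.16, 1.27, 1.48, 2.24 and 1.92 CPM against 10.4 to 12.8 CPM in YAP-S127A (-2.85 ± 0.21, adjusted p = 6.85e-08).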

How the data were processed

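PolyA RNA of mouse liver tumour cell lines was sequenced in 11 libraries, grouped by the mutant in their labels. The authors deposited 1 table per library with a count of reads per Entrez gene and an nRPKM, an RPKM scaled with a size factor, per the file headers. Reads were aligned with GSNAP to GRCm38, per the submitters' processing notes. Not given in the sources used here were the aligner's version, the counter, the annotation and strandedness. RefSeq matched 31049 of 36528 IDs, and the 5479 others held 2.91% of counts. Counts to nRPKM kept 1 ratio per pair of libraries, so nRPKM served only for levels per length.

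Counts were tested with edgeR 4.0.16 in R 4.3.3 (filterByExpr, TMM, robust quasi-likelihood test, Benjamini-Hochberg over 18224 genes, threshold 0.05, 1 fit over all groups) after a check on simulated data. CPM use TMM-scaled totals. Alternatives were DESeq2 1.42.0, limma-voom (limma 3.58.1), RLE or upper-quartile factors, other filters, a minimum log2 fold change of 1, ID series as a covariate, groups fitted alone, close pairs summed and each library left out. Intervals are exact at 95%, and they and the floor of 3 counts cover counting error only. Overlapping members (9 of 44, such as Stat2, Ifit1, Eif2ak2 and Rtp4) may share reads with a partner.

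The members and lists were chosen with earlier results of these data known. Full statistics are given for Isg15, Ifit1, Irf7, Stat2, Irf1, Gbp2, Igtp, Ifitm3 and, per comparison, the 6 called members of largest log2 fold change with average log2 CPM of at least 0. Other members given in detail were chosen after their values were seen. Pathway genes follow a like rule, and Gbp5, Gbp6, Gbp10 and Ifng were added after their values were seen. Promoters came from RefSeq windows, not found for Dhx58, Ifi27, Iigp1, Mx1, Mx2, Oas1b, Oas2, Parp14, Rtp4, Usp18 and Zbp1. The post-start bases of 28 of 39 windows were found in GENCODE transcripts of the gene, as a check of strand.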

Additional observations from a re-analysis of the deposited data

Results flagged for a closer look

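Of 43 members checked, 3 had 1 TAZ-S89A library set apart from the other 4 by more than Dixon's 95% limit for 5 samples (a gap over range of 0.71), and each time it was replicate 3. Gbp2 was high there, at 14.2 CPM against 8.07 to 8.65 CPM in the other 4. Parp14 was low, at 17.6 CPM against 25.3 to 25.6 CPM, and Adar was low, at 60.8 CPM against 76.2 to 82.1 CPM. Chance flags about 1 in 20 groups of this size. Without replicate 3 the direction and call of Gbp2 and Parp14 were unchanged in the 3 comparisons, and Adar was called higher in TAZ-S89A than in YAP-5SA. The cause was not tested.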

How the results depend on the processing

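Among alternative values of the counts and class means, 243 stayed close to the reported ones and 21 moved. Over the 44 members and 4 comparisons, a fold minimum aside, 3480 alternative values were tested, of which 74 lost a call, 44 gained one and 74 changed sign. The strict filter, which tests 27 members, left 7 lower in TAZ-S89A against YAP-S127A, 9 lower in TAZ-S89A against YAP-5SA and 14 higher in YAP-5SA against YAP-S127A. A log2 fold change of at least 1 left 5873, 6164 and 6269 genes in TAZ-S89A against YAP-S127A, TAZ-S89A against YAP-5SA and YAP-5SA against YAP-S127A. Between the TAZ-S89A ID series it left 1584 genes and 3 members lower, and members higher became 3 with RLE size factors, DESeq2 and the strict filter and 1 with upper-quartile factors. With log2 nRPKM the GTPase minus effector means of YAP-S127A, YAP-5SA and TAZ-S89A became -0.84, 0.18 and 0.88. That setting changes both length and offset, and their parts were not separated.

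The sign changes fell on 22 differences that were not called, and 0 passed the test after the change. In TAZ-S89A against YAP-S127A there was 1 (0.042), in TAZ-S89A against YAP-5SA 11 (-0.015 to 0.22), in YAP-5SA against YAP-S127A 16 (-0.18 to 0.063) and between the ID series 46 (-0.44 to 0.25). Those of the genes with full statistics follow. Igtp in TAZ-S89A against YAP-5SA was -0.015 with the ID series as a covariate. Irf1 in YAP-5SA against YAP-S127A was -0.021 with upper-quartile factors and -0.0087 without the second ID series, and leaving out single libraries gave -0.0015 (without YAP-S127A replicate 1) to 0.040. Ifitm3 in that comparison ran from -0.18 to 0.063 on leaving out single libraries, and turned positive without YAP-5SA replicate 1 and also without replicate 3 of YAP-S127A (0.050).

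Leaving out each library in turn gave 14 to 17 members higher, 13 to 15 lower and 9020 to 10920 genes called in TAZ-S89A against YAP-S127A. It gave 9 to 13, 19 to 22 and 9451 to 11154 in TAZ-S89A against YAP-5SA, and 23 to 24, 7 to 9 and 8778 to 10724 in YAP-5SA against YAP-S127A. Between the ID series it gave 0 to 3 members higher, 2 to 8 lower and 2204 to 5562 genes, with the lowest gene counts, 2204 and 2642, without TAZ-S89A replicate 4 or 5, where the lone library is assumed to vary like the other groups. No paired analysis was possible because the labels number no replicates and the numbers used are accession order. Members under about 0.1 CPM rest on a few counts, and their fold changes are imprecise.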
